A study of Sus scrofa with 13 samples.

Results

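Cytochrome P450 enzymes are heme proteins of the endoplasmic reticulum that insert oxygen into drugs, pollutants, fatty acids, steroids and vitamins. They take their electrons from NADPH-cytochrome P450 reductase, encoded by POR, and the liver holds most of the drug-metabolizing forms. Families 1, 2 and 3 carry most of the metabolism of foreign compounds, and many of their genes are switched on by ligand-activated receptors: the CYP1 genes by the aryl hydrocarbon receptor AHR, the CYP2B, CYP2C and CYP3A genes by CAR (NR1I3) and the pregnane X receptor PXR (NR1I2). Family 4 hydroxylates fatty acids and eicosanoids, and its CYP4A genes respond to PPARA. In many models inflammation lowers the mRNA of hepatic P450 genes.

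The genes described here are all rows of the count table whose name begins with CYP followed by 1, 2, 3 or 4 and a letter. The rule took 22 of 35670 genes: 3 of family 1, 12 of family 2, 1 of family 3 and 6 of family 4. It goes by name and not by substrate, so it also holds enzymes of vitamin D, fatty acids and eicosanoids and enzymes best known from lung, skin or gut. Of these 22 genes, 19 passed the filter on low counts and were tested among 16481 genes. CYP4F22, an epidermal fatty acid hydroxylase, had between 0 and 11 reads per library, CYP4B1, best known from lung, between 0 and 5, and CYP2W1, best known from fetal gut and tumours, between 0 and 3, and these 3 genes were not tested. The naming of pig P450 genes is incomplete in this table. Of 23 genes with a family 1 to 4 symbol in the RefSeq annotation of Sscrofa11.1, 12 had a row under that symbol. The other 11, among them CYP3A22, CYP3A46, CYP2D25, CYP2B22, CYP2C33 and CYP2C36, had no row under their symbol. The match was by symbol alone, and 18030 rows of the table carry an identifier without a symbol. The rows CYP2D6, CYP2B6B, CYP1B1, CYP2F1, CYP2S1, CYP2U1, CYP2W1, CYP4B1, CYP4F3 and CYP4F22 match no RefSeq symbol. Whether any of these rows stands for any of the 11 was not checked.

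The samples were livers of female Yorkshire pigs under general anesthesia. Baseline comprised 2 libraries from livers before any vascular occlusion. The ischemic controls were 3 livers kept ischemic at body temperature for 45 min and then reperfused for 6 h, with no cells given. The infusion groups were 4 livers with arterial and 4 with portal infusion of human mesenchymal stromal cells grown from bone marrow, at 3 M (mega) cells per kg body weight, after that same ischemia and with the same reperfusion. All pigs received midazolam, ketamine and sufentanil, which are themselves P450 substrates, and hours under anesthesia differ between baseline and 6 h along with ischemia, so that the effects of both cannot be told apart. The labels do not say whether baseline and 6 h samples came from the same animals, and a difference between these libraries carries the spread between animals and between biopsies alike.

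The total count on genes was between 18975413 and 35949178 per library. Portal infusion 1 and portal infusion 4 had reads on 13581 and 14264 genes, the fewest of the 13 libraries, against up to 20282 elsewhere. The values below are normalized read counts, the deposited counts divided by DESeq2 size factors, and they are not scaled for gene length, so that an order of genes is an order of reads and not of transcripts. In whole tissue, fewer cells of a type and less RNA per cell cannot be told apart. The 20 hepatocyte markers were all measured, and their summed normalized count was between 1747570 in portal infusion 1 and 5226520 in baseline 2.

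The 22 P450 genes took between 0.477% of all counts in arterial infusion 4 and 0.830% in arterial infusion 3. By group this share was 0.719% ± 0.0256 (SD, n = 2) at baseline, 0.705% ± 0.137 (n = 3) in ischemic controls, 0.684% ± 0.159 (n = 4) after arterial and 0.590% ± 0.0755 (n = 4) after portal infusion. In this share all 4 portal livers lay below both baseline libraries, while ischemic controls and arterial livers lay on both sides of them. In summed normalized counts this separation was absent. Portal infusion 2 and 3, at 187493 and 193680, lay between baseline 1a at 176071 and baseline 2 at 198744. Family 2 held almost all of it, with summed normalized counts between 112428 and 257739 per library. The sum of family 1 was 3043 ± 414 (SD, n = 2) at baseline, 6976 ± 7996 (n = 3) in controls, 2843 ± 1260.2 (n = 4) after arterial and 3341 ± 1536 (n = 4) after portal infusion. The sum of family 4 was 3499 ± 568, 3072 ± 3116, 2453 ± 1012 and 2080.1 ± 606 in the same order, and family 3 had 1 gene, described below. The spread of both sums in controls was wider than their mean, through 1 library each, ischemic control 1 in family 1 and ischemic control 3 in family 4. Of all P450 reads, 4 genes, CYP2A19, CYP2E1, CYP2D6 and CYP2C49, took between 79.9% in ischemic control 1 and 94.9% in ischemic control 2.

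CYP2A19, the pig relative of the nicotine and coumarin hydroxylase CYP2A6, lies on chromosome 6 (49056579 to 49064111, Sscrofa11.1) and had the most reads of all. Its normalized count was 39834 and 73906 at baseline, 29132, 110955 and 37460.5 in ischemic controls, 83086, 75321, 80688 and 32514 after arterial infusion and 31317, 44211, 53174 and 35334 after portal infusion. Of the 4 arterial livers, 3 lay close together and above every portal liver, and the remaining one was near the lowest portal value. The mean was 67902 ± 23814 (SD, n = 4) after arterial and 41009 ± 9736 (n = 4) after portal infusion, a log2 difference of 0.74 with a standard error of 0.47 (adjusted p = 1.00, edgeR).

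CYP2E1, the pericentral enzyme that oxidizes ethanol and acetaminophen and, with CYP2A19, breaks down skatole in the pig, lies on chromosome 14 (141690737 to 141703078). Its normalized count was 43946 and 45126 at baseline, 13643, 47570.3 and 49627 in ischemic controls, 21434, 61380.4, 61731 and 35169.7 after arterial infusion and 29789, 40606, 57726 and 21916 after portal infusion. The baseline libraries differed little from each other, while ischemic control 1 held the lowest level of all 13 libraries and the other 2 controls were above baseline. The fitted difference between controls and baseline was -0.29 ± 0.62 (SE) on the log2 scale.

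CYP2D6 stands here for the row of that name, the family that metabolizes codeine and many antidepressants. Its normalized count was 41508 and 11177 at baseline, 26301, 79474 and 47744 in ischemic controls, 79216, 28673, 18072 and 23882 after arterial infusion and 53544, 44248, 34352 and 40548 after portal infusion. The 4 portal livers lay closest together, at 43173 ± 8029 (SD, n = 4), inside the range of each of the other 6 h groups, and baseline 2 was the lowest of the 13 libraries.

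CYP2C49 belongs to the subfamily that handles many acidic drugs and arachidonic acid, and lies in a cluster of 6 CYP2C genes on chromosome 14 (106184665 to 106736291). Its normalized count was 33218 and 48813 at baseline, 44943, 13093 and 31788 in ischemic controls, 11998, 29498, 58251 and 15147 after arterial infusion and 7626, 41322, 32627 and 19737 after portal infusion. Each 6 h group held livers near or above the lower baseline value and livers far below it. The low livers were ischemic control 2, arterial infusion 1 and 4, and portal infusion 1 and 4. These 5 libraries also stood apart in depth or detected genes. Ischemic control 2, portal infusion 1 and 4 and arterial infusion 4 had the 4 lowest total counts, from 18975413 to 24339939 against at least 26865538 in the other 9, and portal infusion 1 and 4 and arterial infusion 1 had reads on the fewest genes, 13581, 14264 and 15460. The part of these library differences in the values of CYP2C49, CYP3A29 and CYP2B6B was not tested.

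CYP3A29, a pig counterpart of the human CYP3A enzymes that clear midazolam, was the only row of family 3 and lies on chromosome 3 (6738502 to 6778121). Its normalized count was 6007 and 11223 at baseline, 7933, 2972 and 5815 in ischemic controls, 3361, 7886, 11276 and 3331 after arterial infusion and 1227, 6009, 3722 and 747 after portal infusion. The lowest 5 livers were the same 5 that were lowest in CYP2C49, and the lowest of all were portal infusion 4 and 1. The mean was 6463 ± 3856 (SD, n = 4) after arterial and 2926 ± 2434 (n = 4) after portal infusion, a log2 difference of 1.13 ± 0.65 (SE). This difference was not called (adjusted p = 1.00, edgeR; two-sided exact permutation p = 0.171), and it was 0.38 without portal infusion 1 and 4, 0.69 without arterial infusion 3 and 1.78 without portal infusion 2.

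CYP2B6B belongs to the phenobarbital-inducible CYP2B subfamily. Its normalized count was 2848 and 2055 at baseline, 2487, 6348 and 2573 in ischemic controls, 6756, 5745, 3328 and 5021 after arterial infusion and 19399.7, 2789.8, 4150.5 and 6982 after portal infusion. The 5 livers lowest in CYP2C49 held 5 of the 6 highest values of CYP2B6B, and portal infusion 1 was lowest in the first gene and highest in the second.

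**Figure D1:**
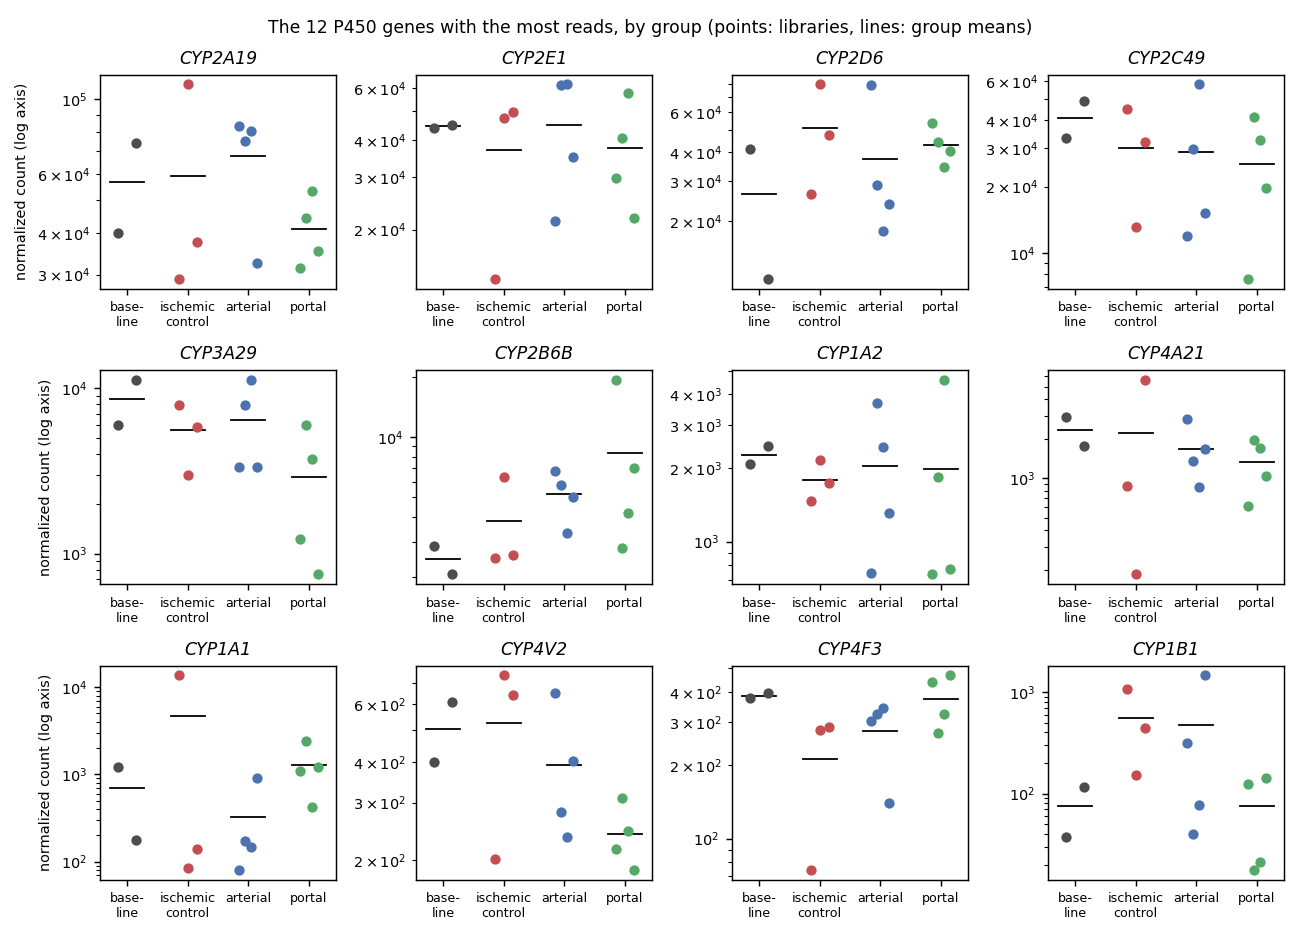
Normalized read counts (log axis, with its own range in each panel) of the 12 P450 genes with the most reads, by group. Each point is a library (2 baseline, 3 ischemic control, 4 arterial, 4 portal) and each line a group mean; the groups overlap in most panels, and for CYP1A1 a single ischemic control lies at 13683 while the other 2 are at 84.1 and 138.

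The opposite order of CYP2C49 and CYP2B6B held across the study. Over the 13 libraries, Pearson's r between their log2 normalized counts was -0.879 (permutation p = 0.00011, adjusted over 171 pairs of P450 genes p = 0.0188) and Spearman's rho was -0.835 (permutation p = 0.00059, adjusted p = 0.0504). It was -0.778 without the 2 libraries farthest from the median of CYP2C49, -0.864 over the 11 livers at 6 h and -0.897 after the group means were taken out. In choices made after seeing the data, r was -0.759 without the 3 libraries with reads on the fewest genes and -0.751 without the 4 with the lowest total counts. For CYP3A29 with CYP2C49 these values were 0.867 and 0.793, and for CYP2D6 with CYP2C49 they were -0.566 and -0.788. This was the only one of the 171 pairs with an adjusted Pearson p under 0.05, and no pair passed by Spearman's rho. The ratio of CYP2B6B to CYP2C49 reads was between 0.0421 and 0.0857 at baseline, and reached 0.485 in ischemic control 2, 0.563 in arterial infusion 1 and 2.54 in portal infusion 1.

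CYP3A29 followed CYP2C49 in sign and CYP2D6 ran against it. For CYP2C49 and CYP3A29 r was 0.772 (permutation p = 0.00191, adjusted p = 0.0902) and rho 0.868 (permutation p = 0.00032, adjusted p = 0.0504), with r at 0.725 without the 2 libraries farthest in CYP2C49. For CYP2D6 and CYP2C49 r was -0.664 (permutation p = 0.0128, adjusted p = 0.265), rho was -0.681 (permutation p = 0.0128, adjusted p = 0.365), and r was -0.519 without the 2 libraries farthest in CYP2D6. The ratio of CYP2D6 to CYP2C49 reads ran from 0.229 in baseline 2 to 7.02 in portal infusion 1, with ischemic control 2 at 6.07 and arterial infusion 1 at 6.60. The P450 genes as a set did not move together, since r was above 0 in 91 of the 171 pairs, with a median of 0.0333.

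Erythroid markers were highest in the same 5 livers, while neutrophil markers were high in only some of them, and the part of blood cells in these patterns was not tested. Of 10 erythroid markers 6 were tested, and the summed normalized count of the list reached 29352 in ischemic control 2, 18238 and 5169 in portal infusion 1 and 4, and 4802 and 13776 in arterial infusion 1 and 4, against at most 2958 in the other 8 libraries. Of 15 neutrophil markers 8 were tested, and their sum was 12867 in ischemic control 2, 9770 and 7550 in arterial infusion 1 and 4, but 3973 and 2898 in the same-numbered portal livers, with ischemic control 3 at 5171 and portal infusion 2 at 3379. By group the erythroid sum ranged from 1019 to 1887 at baseline, 1393 to 29352 in ischemic controls, 2313 to 13776 after arterial and 1019 to 18238 after portal infusion, and the neutrophil sum from 1288 to 1479, 1764 to 12867, 894 to 9770 and 1083 to 3973 in the same order. No marker of either list with a row was at 0 in every library.

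**Figure D2:**
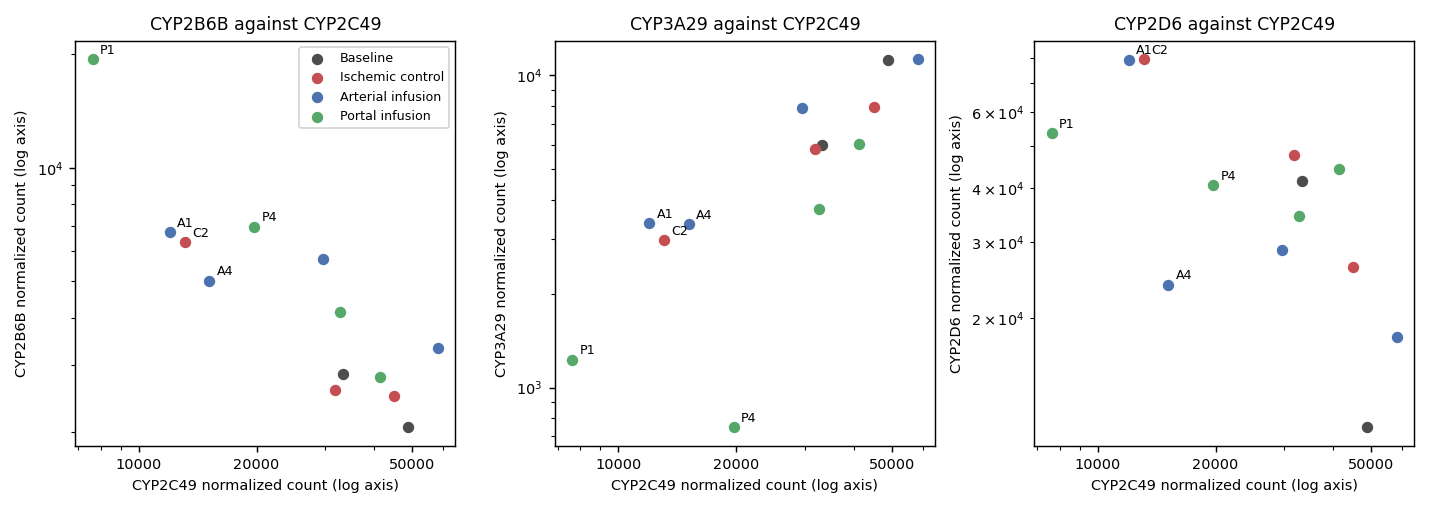
Normalized read counts of CYP2B6B, CYP3A29 and CYP2D6 (vertical, log axes) against CYP2C49 (horizontal, log axis), 1 point per library, coloured by group. The 5 labelled livers (C2, ischemic control 2; A1 and A4, arterial infusion 1 and 4; P1 and P4, portal infusion 1 and 4) are lowest in CYP2C49 and in CYP3A29, and r with CYP2C49 was -0.879 for CYP2B6B, 0.772 for CYP3A29 and -0.664 for CYP2D6.

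In family 1, CYP1A1 and CYP1B1 are the inducible genes, which activate polycyclic aromatic hydrocarbons, and CYP1A2 is the constitutive liver form, known for caffeine. CYP1A2 and CYP1A1 lie next to each other on chromosome 7, 16731 bases apart. CYP1A2 was at 2070.3 and 2456 at baseline, 1460.4, 2163 and 1740.2 in ischemic controls, 743, 3698, 2428 and 1315 after arterial infusion and 735, 1846, 4587 and 777 after portal infusion. Its spread widened from the controls, at 1788 ± 354 (SD, n = 3), to the portal livers, at 1986 ± 1808 (n = 4). It went with CYP2E1 across the 13 libraries, with r = 0.748 (permutation p = 0.00300, adjusted p = 0.103) and rho = 0.819 (permutation p = 0.00108, adjusted p = 0.0616), and r was 0.903 without the 2 libraries farthest in CYP2E1.

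CYP1A1 was at 1229 and 179 at baseline, 13683, 84.1 and 138 in ischemic controls, 80.3, 171, 147 and 898 after arterial infusion and 1092, 2393, 418 and 1209.7 after portal infusion. Ischemic control 1 stood far above every other liver, and the other 2 controls were at the level of the 3 lowest arterial livers. In ischemic control 1 the gene had 9.37 times the reads of CYP1A2, and elsewhere the ratio ran from 0.0389 to 1.56. The portal livers were all above 3 of the 4 arterial ones, at 1278 ± 821 (SD, n = 4) against 324 ± 385 (n = 4), a log2 difference of arterial minus portal of -1.97 ± 1.26 (SE) (adjusted p = 1.00, edgeR; two-sided exact permutation p = 0.0571). For the neighbours CYP1A2 and CYP1A1 r was -0.232 (permutation p = 0.444, adjusted p = 0.807), rho was -0.187 (permutation p = 0.542, adjusted p = 0.923) and r was -0.204 without the 2 libraries farthest in CYP1A2. CYP1A1 ran against CYP2A19, with r = -0.795 (permutation p = 0.00133, adjusted p = 0.0902), rho = -0.742 (permutation p = 0.00524, adjusted p = 0.179), and r = -0.718 without the 2 libraries farthest in CYP2A19.

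CYP1B1, an extrahepatic and stromal form of the family, was at 37.0 and 115 at baseline, 1066, 154 and 441 in ischemic controls, 315, 39.9, 77.9 and 1459 after arterial infusion and 125, 17.7, 21.1 and 141 after portal infusion. All 3 controls were above both baseline libraries and above all 4 portal livers, and the arterial livers reached from below the upper baseline library to above every control. The orders of CYP1B1 and CYP1A1 matched only in part. Ischemic control 1 had the highest CYP1A1 and the second highest CYP1B1. Arterial infusion 4 had the highest CYP1B1, and portal infusion 2, with the second highest CYP1A1, had the lowest CYP1B1. The 3 livers with the most CYP1B1, arterial infusion 4 and ischemic controls 1 and 3, also had the 3 highest sums of the stellate and stromal markers, 36775, 36281 and 42383, against at most 30864 in the other libraries. Other libraries did not keep this order. Arterial infusion 1, at 315 in CYP1B1, had a sum of 8965. Portal infusion 2, lowest in CYP1B1, had 25953, and baseline 2, at 115, had 30864. These 14 markers (15 listed) summed to between 20668 and 30864 at baseline, 14699 and 42383 in ischemic controls, 8965 and 36775 after arterial and 6575 and 25953 after portal infusion. No marker of the list with a row was at 0 in every library, and the part of stromal cells in the CYP1B1 values was not tested.

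**Figure D3:**
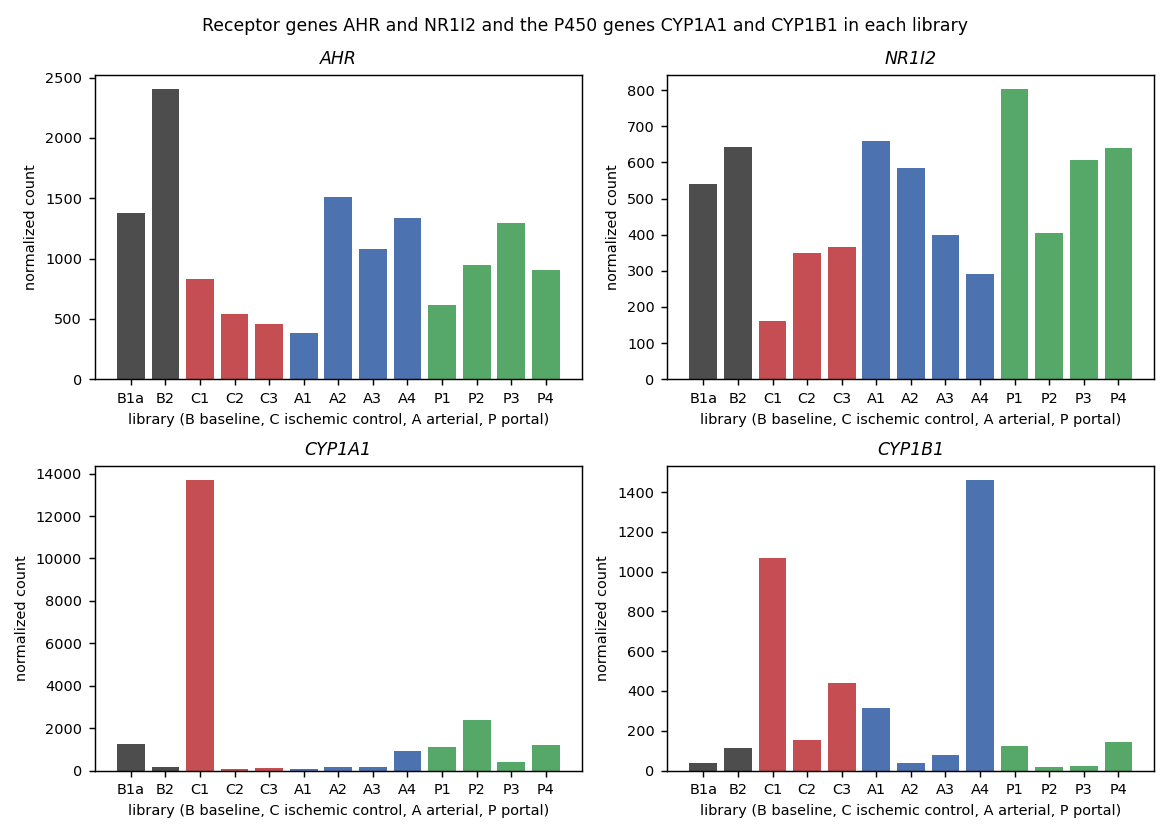
Normalized read counts (vertical, from 0) of the receptor genes AHR and NR1I2 and the P450 genes CYP1A1 and CYP1B1 in each of the 13 libraries (B baseline, C ischemic control, A arterial, P portal; 1 bar per library, no error bars). CYP1A1 peaks in ischemic control 1 and CYP1B1 in arterial infusion 4 and ischemic control 1, while AHR is highest in baseline 2 and NR1I2 in portal infusion 1.

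Family 4 and the rest of family 2 had far fewer reads. CYP4A21, a fatty acid omega-hydroxylase of the PPARA-regulated CYP4A group on chromosome 6, was at 2937 and 1754 at baseline, 865, 184 and 5652 in ischemic controls, 2819.5, 1351, 863 and 1670.3 after arterial infusion and 608, 1944, 1714 and 1035 after portal infusion. The lowest and the highest of the 13 values were both in ischemic controls, a 30.7-fold range. Its neighbour CYP4A24 was at 185 and 332 at baseline, 28.5, 179 and 79.5 in ischemic controls, 138, 26.0, 199 and 38.8 after arterial infusion and 60.4, 114, 207 and 177 after portal infusion. Both baseline libraries were above all 3 controls, by a narrow margin over ischemic control 2, and 9 of the 11 livers at 6 h were below both baseline libraries.

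CYP4F3, which inactivates leukotriene B4, was at 378 and 396 at baseline, 74.4, 278 and 287 in ischemic controls, 303, 324, 343 and 140.4 after arterial infusion and 438, 271, 324 and 469 after portal infusion. The controls were all below baseline, and the 2 highest values of all were portal infusion 4 and 1. CYP4V2, a fatty acid hydroxylase best known from the eye, was at 400.3 and 612 at baseline, 201, 737 and 643 in ischemic controls, 652, 280.4, 236 and 401 after arterial infusion and 216, 310.1, 246 and 186 after portal infusion. Ischemic control 2 was above every infused liver and ischemic control 3 above every one but arterial infusion 1, while ischemic control 1 was among the 3 lowest libraries.

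The RefSeq gene span of CYP2C42 shares 5113 bases with that of CYP2C91. Exons were not compared, so whether reads there are ambiguous was not tested. CYP2C42 was at 533 and 264 at baseline and 80.7, 80.6 and 327 in ischemic controls. It was at 0, 149, 156 and 82.8 after arterial infusion and 127, 312, 93.3 and 194 after portal infusion. Of the 11 livers at 6 h, 9 were below both baseline libraries. CYP2R1, the vitamin D 25-hydroxylase, was between 47.8 in portal infusion 4 and 364 in portal infusion 2, and CYP2U1, a fatty acid hydroxylase, between 10.5 in ischemic control 2 and 293 in arterial infusion 2. CYP2J34, of the subfamily that makes epoxides of arachidonic acid, was at 0 in 5 libraries and between 12.3 and 547 in the others, the most uneven gene of all, with a biological coefficient of variation of 2.09. CYP2S1 (0 to 132) and CYP2F1, best known from lung (0 to 36.7), were both at 0 in arterial infusion 1, as was CYP2C42.

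Variation between livers was not clearly larger for these genes than for a typical gene. Over the 11 livers at 6 h, the SD of log2(normalized count + 1) had a median of 1.12 over the 19 tested P450 genes and 0.905 over all 16481 genes. Of the 19, 11 were above the latter, which as a median splits all genes evenly. The edgeR fit gave biological coefficients of variation between 0.461 for CYP4V2 and 2.09 for CYP2J34, against a common value of 0.729. Only CYP1A1 (1.08), CYP1B1, CYP2C42, CYP2J34, CYP2S1 and CYP2F1 were above the common value, and the other tested P450 genes were below it. Single livers were low or high in different genes. With CYP2J34 left aside, where 5 libraries were at 0, arterial infusion 1 was the lowest of the 13 in 4 genes and ischemic control 1 and portal infusion 4 in 3 each, and ischemic control 2 and arterial infusion 3 were each highest in 3. The median deviation of the 19 genes from their own means was 0.41 and 0.49 on the log2 scale in baseline 1a and 2. It was 0.41 in ischemic control 3 as well, and lowest in ischemic control 1, at -0.46. Over all tested genes it was 0.12, 0.15, 0.12 and 0.03 in these libraries, in the same order.

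**Figure D4:**
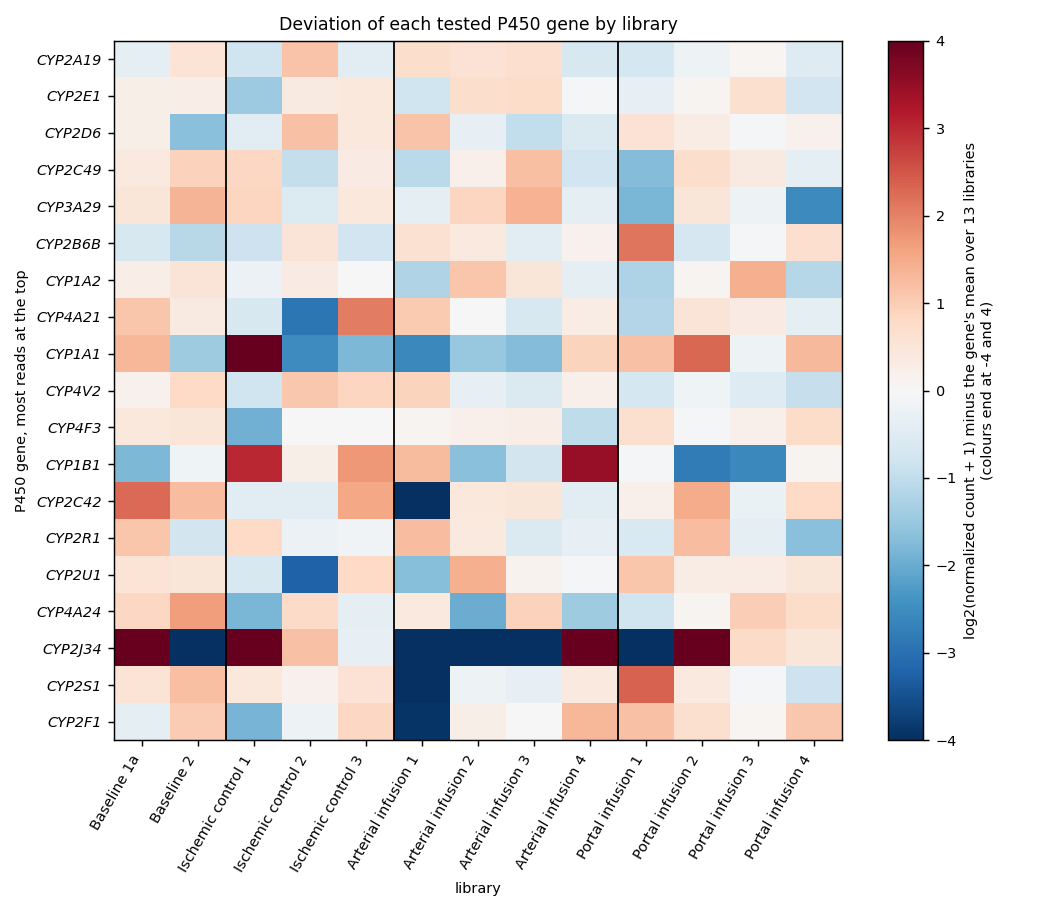
Deviation of log2(normalized count + 1) from the gene's mean over 13 libraries, for the 19 tested P450 genes (rows, most reads at the top) and the libraries (columns, black lines between groups); red is above and blue below the mean, and colours end at -4 and 4. Rows differ within every group, as in CYP1A1, CYP1B1 and CYP2J34, and no group has a colour of its own across the rows.

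The comparison of ischemic controls with baseline asks what warm ischemia and 6 h of reperfusion did. No P450 gene was called (0 of 19, with 0% of the 16481 genes called at an adjusted p under 0.05 by edgeR), and none had an unadjusted p under 0.05, against 4.30% of all genes (709). CYP1B1 was higher in controls by 2.91 ± 1.43 (SE) on the log2 scale (554 ± 467, SD, n = 3, against 76.0 ± 55.1, n = 2). CYP4A24 differed by -1.48 ± 0.90 (95.5 ± 76.3 against 259 ± 104) and CYP4F3 by -0.88 ± 0.55 (213 ± 120 against 387 ± 12.5). With single libraries left out, CYP4A24 ranged from -2.22 without ischemic control 2 to -1.05 without baseline 2. CYP4F3 was -0.49 without ischemic control 1. These were also the 3 genes of the 19 whose groups did not overlap, 1 higher and 2 lower in controls. Over all genes tested, 31.1% did not overlap, 14.8% higher and 16.3% lower, so that 3 of 19 was not more than the background. The smallest adjusted p of the 19 was 0.980 (edgeR), and 2 against 3 libraries cannot give an exact p below 0.1. DESeq2 over all 13 libraries called 0 of the 19 as well, and DESeq2 over these 5 libraries alone called CYP1B1 (log2 difference 2.92, adjusted p = 0.0345), among 169 of 15021 genes. All 8 tested neutrophil markers and all 6 tested erythroid markers were higher in controls, with medians of 1.32 and 1.94, and none was called.

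Of the 19 genes 13 were lower in controls than at baseline, with a median log2 difference of -0.35, where 49.6% of all genes were lower and the median was 0.00. Set against all 11 livers at 6 h, baseline was higher in 15 of 19 P450 genes, with a median difference of -0.29, and 50.6% of all genes were lower at 6 h, with a median of -0.01. Both comparisons share the 2 baseline libraries. The control median was -0.17 without baseline 2 and -0.23 without ischemic control 2, and the 6 h median was -0.48 without portal infusion 3 and -0.13 with limma voom. At 6 h, CYP2B6B was higher by 1.16 ± 0.62 (SE), and 8 of 11 livers were above both baseline libraries. CYP4A24 differed by -1.22 ± 0.70 (-0.80 without baseline 2) and CYP2C42 by -1.52 ± 0.91 (-0.91 without baseline 1a). None of the 19 passed here either (smallest adjusted p = 0.855, edgeR), none had an unadjusted p under 0.05 (4.67% of all genes, 770, did), and none of the 19 had groups that did not overlap (7.27% of all genes).

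The comparisons of infused livers with ischemic controls ask whether the stromal cells changed the injured liver. Again 0 of 19 P450 genes were called in arterial, portal or all infused livers, with 0% of all genes called in each by edgeR, and DESeq2 called 0 of the 19 too, whether over all libraries or only those compared. At an unadjusted p under 0.05 the edgeR fit held CYP1A1 after arterial infusion (1.56% of all genes, 257), CYP1B1 and CYP4V2 after portal infusion (2.79%, 459), and CYP1A1 over all infused livers (2.13%, 351).

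CYP1A1 differed from controls by -3.92 ± 1.40 (SE) on the log2 scale after arterial infusion and by -2.93 ± 1.07 over all 8 infused livers. Both values rest on ischemic control 1: without it they were 1.54 and 2.53, of the opposite sign. The exact permutation test, which weighs livers on the log scale, gave p = 0.657 and 0.921.

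CYP1B1 differed from controls by -2.99 ± 1.09 (SE) after portal infusion, at 76.1 ± 65.9 (SD, n = 4) against 554 ± 467 (n = 3), with all 4 portal livers below all 3 controls (2.33% of all genes were lower without overlap). The adjusted p was 1.00 (edgeR) and the two-sided exact permutation p was 0.0571. Of the 14 tested stellate and stromal markers 10 were lower in the same comparison, with a median of -0.99, and none was called. The CYP1B1 difference was -2.05 without ischemic control 1 and -4.83 without portal infusion 1 and 4. After arterial infusion it was -0.29 ± 1.05, and arterial livers were above portal ones by 2.70 ± 1.05 (adjusted p = 1.00, edgeR; exact permutation p = 0.2), a value that was 0.99 without arterial infusion 4.

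CYP4V2 differed from controls by -1.14 ± 0.47 (SE) after portal infusion, at 240 ± 52.8 (SD, n = 4) against 527 ± 286 (n = 3), and by -0.42 ± 0.47 after arterial infusion, where it was -0.80 without ischemic control 1 and -0.14 without ischemic control 2. For its portal difference the two-sided exact permutation p was 0.171. CYP2B6B was higher after portal infusion by 1.07 ± 0.57, at 8330.4 ± 7583 against 3803 ± 2205. This rests on the 2 portal libraries with the fewest genes, and without both the difference was -0.0717, and without portal infusion 1 alone it was 0.29. CYP4F3 was higher than in controls by 0.39 ± 0.47 after arterial infusion, and that value was -0.00335 without ischemic control 1. After portal infusion CYP4F3 was higher by 0.79 ± 0.48 (two-sided exact permutation p = 0.114).

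Of the 19 genes, 9 were lower than in controls after arterial infusion (median log2 difference 0.10, 49.2% of all genes lower) and 9 after portal infusion (median 0.03, 51.9% of all genes lower). Neither median kept its sign: it was -0.23 without arterial infusion 3 and -0.31, with 12 genes lower, without portal infusion 2. Over all infused livers 12 were lower, with a median of -0.17, where 52.1% of all genes were lower and the median was -0.02. The P450 median was -0.31 without portal infusion 2 and 0.01, with 9 lower, without ischemic control 1. Between the routes of infusion, 10 of 19 were lower after arterial than after portal infusion, with a median of -0.19 (-0.02 without arterial infusion 4 and -0.00439 without portal infusion 2), where 47.1% of all genes were lower. No gene of the 19 had groups without overlap after arterial infusion against controls (3.19% of all genes), in all infused livers against controls (0.564%) or between the routes (1.41%), and after portal infusion CYP1B1 was the only 1 (3.72%). Only CYP1B1 had an unadjusted p under 0.05 between the routes (2.43% of all genes, 400), and none was called (0% of all genes).

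**Figure D5:**
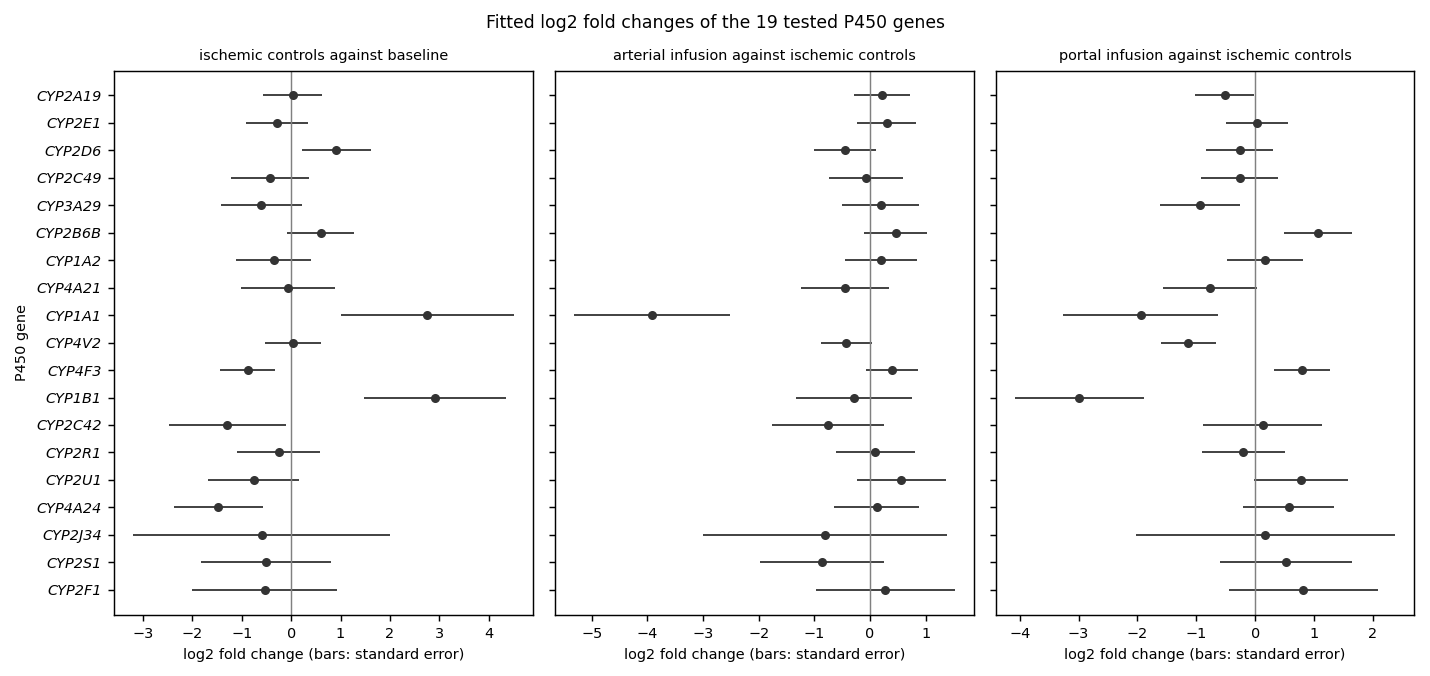
Fitted log2 fold changes (horizontal) of the 19 tested P450 genes (vertical, most reads at the top) for ischemic controls against baseline, arterial infusion against controls and portal infusion against controls; points are edgeR estimates and bars standard errors. The 5 genes with most reads lie between -0.94 and 0.92 in all 3 panels, while CYP1A1 after arterial infusion (-3.92) and CYP1B1 after portal infusion (-2.99) lie farthest out.

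Genes that supply or regulate the P450 system were followed from lists. Of 15 genes for electron transfer and heme, all were tested, none was called in any comparison, and 1 had an unadjusted p under 0.05 in controls against baseline (4.30% of all genes) and 1 at 6 h against baseline (4.67%). POR was at 6051 and 6063 at baseline, 5297, 7111 and 8337 in ischemic controls, 13017, 5079.8, 6428 and 2726 after arterial infusion and 9393, 5414, 5405 and 11299 after portal infusion. The baseline libraries were nearly equal, and arterial infusion 1 and portal infusion 4 and 1 had the 3 highest levels. PPOX, of the last steps of heme synthesis, was at 417 and 463 at baseline and between 44.1 and 301 in the 11 livers at 6 h, all below baseline. Its difference at 6 h was -1.39 ± 0.56 (SE; adjusted p = 0.855, edgeR; two-sided exact permutation p = 0.0385). HMOX2, the constitutive heme oxygenase, was at 1875 and 1750.1 at baseline and between 1909 and 11879 at 6 h, all above baseline, a difference of 1.47 ± 0.71 (adjusted p = 0.855, edgeR). Of all genes, 7.27% did not overlap between baseline and 6 h, and PPOX and HMOX2 were named for their small p-values. HMOX1, the inducible form, was at 4495 and 3649 at baseline and between 4166 and 13328 at 6 h.

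Of 22 regulators, all were tested and none was called in any comparison. In controls against baseline, 15 were lower and 7 higher, with a median of -0.25, and 4 had an unadjusted p under 0.05, where 49.6% of all genes were lower and 4.30% had such a p. AHR was at 1381 and 2405 at baseline and at 833, 541 and 455 in controls, all below (31.1% of all genes did not overlap here), a difference of -1.62 ± 0.55 (SE; adjusted p = 0.980, edgeR; exact permutation p = 0.1, the smallest possible). It was between 381 and 1514 after arterial and between 617 and 1297 after portal infusion. Ischemic control 1, with the highest CYP1A1, thus had the highest AHR of the controls but less than baseline. Other AHR targets, looked at after the CYP1A1 values were seen, were AHRR, with 33.2 in ischemic control 1 and 20.9 or less in each of the other 12 libraries, and TIPARP, at 929 in ischemic control 1, 981 in portal infusion 2 and between 207 and 794 in the rest. AHRR had a low count throughout. It was at 0.93 in portal infusion 2, which had the second highest CYP1A1. TIPARP was at 794 in arterial infusion 2, where CYP1A1 was at 171.

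NR1I2, the gene of PXR, was at 541 and 642 at baseline, 161, 350.2 and 367 in ischemic controls, 660.3, 585, 398 and 290.3 after arterial infusion and 803, 404, 606 and 639 after portal infusion. The controls were below both baseline libraries, by -1.03 ± 0.46 (SE; adjusted p = 0.980, edgeR; exact permutation p = 0.1), and below all 4 portal livers, by 1.03 ± 0.40 (adjusted p = 1.00, edgeR; exact permutation p = 0.0571). Both comparisons share the controls, and 31.1% and 3.72% of all genes did not overlap in them. NR1I2 and CYP3A29, a textbook PXR target, were not ordered alike: portal infusion 1 had the highest NR1I2 and the second lowest CYP3A29. NR1I3, the gene of CAR, had a low count throughout, at 0 in arterial infusion 1 and portal infusion 1 and 4 and at most 74.4 in ischemic control 3, a 0 being compatible with up to 3 reads in that library. The 3 libraries at 0 were those with reads on the fewest genes, and they held the 3 highest values of CYP2B6B.

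The hepatocyte factors HNF4A and CEBPA, which drive many P450 genes, gave different pictures. HNF4A was between 8405 and 17815 with little between the groups, its fitted difference being -0.05 ± 0.44 (SE) in controls against baseline and -0.12 ± 0.37 at 6 h against baseline. CEBPA was at 540.3, 562 and 1080.4 in ischemic controls and at 2382, 1165, 1320.3 and 1310.2 after portal infusion without overlap (3.72% of all genes did not overlap), a difference of 1.03 ± 0.39 (adjusted p = 1.00, edgeR; exact permutation p = 0.0286). FOXA2 was at 204, 413 and 327 in controls and at 337, 679, 447 and 1076 after portal infusion, a difference of 0.99 ± 0.45. CEBPA and FOXA2 were named for their small p-values. Of the 22 regulators, 11 were higher and 11 lower after portal infusion than in controls, with a median of -0.04. By edgeR 3 of them had an unadjusted p under 0.05, against 2.79% of all genes.

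Of 17 P450 rows outside families 1 to 4, which make or break down sterols, bile acids, retinoic acid and steroid hormones, 10 were tested and none was called by edgeR. In controls against baseline 7 were lower and 3 higher, with a median of -0.49, where 49.6% of all genes were lower. The paper, which used DESeq2, named CYP7A1, CYP4F8 and PPARA among the genes lower at 6 h of reperfusion than at baseline. No row taken here has the name CYP4F8. CYP8B1, the bile acid 12-alpha-hydroxylase, was at 83.3 and 157 at baseline and at 36.4, 17.5 and 42.6 in controls. It was named for its small p-value, and 16.3% of all genes were lower without overlap in this comparison. CYP26A1, which clears retinoic acid, ranged from 28.9 in portal infusion 1 to 1939.6 in arterial infusion 4, the liver that also had the most CYP1B1. Between the routes of infusion 9 of the 10 were higher after arterial infusion, with a median of 0.49, where 52.9% of all genes were higher.

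Of 16 pericentral hepatocyte markers 13 had rows and were tested, and their sum was between 20974 in ischemic control 1, where CYP2E1 was also lowest, and 89278 in arterial infusion 1, where CYP2E1 was second lowest. At 6 h against baseline 10 of the 13 were lower, with a median of -0.57, as were 11 of 16 periportal markers, with a median of -0.42, where 50.6% of all genes were lower, and none was called. Of 23 cytokine and acute phase genes 16 were tested and none was called. In controls against baseline 9 of them were higher and 7 lower, with a median of 0.25, and their sum was lowest in portal infusion 1 (645380), which had the lowest CYP2C49, and in arterial infusion 1 (827006). The part of these cell states in the P450 values was not tested.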

How the data were processed

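RNA from 13 pig liver samples was sequenced as paired-end, non-directional poly-A libraries. Raw read counts of 35670 genes were deposited by the authors, who had aligned the reads to Sscrofa11.1 (HISAT2) and assigned them to Ensembl genes (FeatureCounts). Versions of both tools and the treatment of multi-mapping reads are not given in the sources used here, and closely related P450 genes may share such reads. The label titles match the columns and gave the groups, with 0 columns unassigned. No 2 libraries were copies (smallest chi-square per gene 83.6).

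The robust quasi-likelihood test of edgeR 4.0.16 (R 4.3.3) was run after filterByExpr and TMM normalization, all libraries in 1 fit, with Benjamini-Hochberg adjustment over 16481 genes and a threshold of 0.05. Normalized counts are counts divided by DESeq2 1.42.0 size factors. Single genes were also compared by two-sided exact permutation tests of log2(normalized count + 1), and pairs of genes by correlations with 100000 resamples. Alternatives were DESeq2, limma 3.58.1 voom with sample weights, only the groups compared, RLE and upper quartile normalization, no filter or at least 10 counts in every library, the replicate number as a block, and each library left out in turn. On simulated counts of 16481 genes, 200 of them with a log2 change of 3, the edgeR step recovered between 47 and 108, depending on the comparison, and called at most 7 unchanged genes. P-values measure the spread between these samples, which the labels do not tie to separate animals in every case.

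The P450 genes and lists were chosen with earlier results of these data known. Named with every value were the 12 genes with the most reads, the 3 with the smallest p in each comparison, CYP1A1, CYP1A2, CYP1B1, CYP2E1 and the gene with the most reads of each family. The plan was to rank genes per kilobase, and reads were used because transcript lengths were not used here. From the supply, regulator and other P450 lists, genes with small p-values and POR, AHR, NR1I2, NR1I3 and HNF4A were named, and AHRR and TIPARP were added after the values were seen. Coordinates are from RefSeq for Sscrofa11.1.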

Additional observations from a re-analysis of the deposited data

Results flagged for a closer look

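In groups of 4 livers, a library was marked where its gap to the nearest of the others was large relative to the group's range (Dixon's 95% criterion). Of 38 groups tested 5 held such a library, and chance marks about 1 in 20. In arterial infusion 4, CYP2A19 was at 32514, far below the other 3 arterial livers, CYP1A1 was at 898 and CYP2J34 at 313, both far above the other 3. In portal infusion 2, CYP2J34 was at 547, with the other portal livers at 27.1 or less. In portal infusion 1, CYP2S1 was at 132, with the other portal livers at 32.7 or less. Of the 5 marked values 3 came from arterial infusion 4, which also had the highest CYP1B1 and CYP26A1 of the 13 libraries.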

How the results depend on the processing

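The number of P450 genes called was 0 in each of the 6 comparisons with edgeR and stayed at 0 in every alternative run but one: DESeq2 over only the ischemic controls and baseline called 1, CYP1B1 (log2 difference 2.92, adjusted p = 0.0345, against 0.0345 to 1.00 over its alternatives). Leaving out each library in turn gave between 0 and 0 called genes. Among 18 single-gene differences, 165 of 167 alternative values other than leaving out 1 library kept their direction and their side of the threshold. With portal infusion 1 and 4 left out, a choice made after seeing the data, CYP2B6B in portal livers against controls was -0.0717 in place of 1.07. Without ischemic control 1, CYP1A1 was 2.53 in all infused and 1.54 in arterial livers against controls, and CYP4F3 in arterial livers -0.00335. Over the libraries left out, CYP1A1 ranged from -3.49 to 2.53 and from -5.19 to 1.54, and CYP4F3 from -0.00335 to 0.65. With the replicate block 0 P450 genes were called in each comparison. Of 16 same-numbered pairs of libraries, 5 had a correlation of deviations from the group means over 0.1, and the range was -0.42 to 0.43. With 2 baseline libraries, the deviations of one mirror those of the other. These correlations therefore cannot tell whether equal numbers at baseline and 6 h mean the same animal. In all infused livers against controls, 12 of 19 genes were lower, but 9 with the replicate block, 9 with voom and 8 without portal infusion 1 and 4. The edgeR count at an unadjusted p under 0.05 in controls against baseline, 709 of all genes, was 1989 with DESeq2 over only these groups. Genes under about 100 reads, such as CYP2S1 and CYP2F1, had standard errors above 0.9 on the log2 scale.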
